A study of Homo sapiens with 20 samples.

Results

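The genes described here are those that prepare peptides for MHC class II (MHC-II) molecules and load them: HLA-DMA, HLA-DMB, HLA-DOA, HLA-DOB, IFI30, CTSS, CTSL, CTSB, CTSD and LGMN. They were taken by name and are 10 of the 43366 genes in the deposited count table, which held a row for each of them. In a cell that presents antigen on MHC-II, proteins reach acidic endosomes and lysosomes, where the thiol reductase encoded by IFI30 opens their disulfide bonds and cathepsins and legumain (LGMN) cut them into peptides. New MHC-II dimers arrive there with the invariant chain CD74, which proteases shorten step by step, cathepsin S (CTSS) taking the last step in B cells and dendritic cells, until only the CLIP fragment remains in the groove. HLA-DM, the dimer of HLA-DMA and HLA-DMB, releases CLIP and favours stable peptides, and HLA-DO, the dimer of HLA-DOA and HLA-DOB, binds HLA-DM and restrains it. Transcription of the MHC-II chains, of CD74 and of HLA-DM depends on the coactivator CIITA, which interferon γ (IFNγ) switches on in cells that do not normally present antigen on MHC-II.

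The study asked how ZBTB48, a zinc finger protein that binds telomeric repeats and promoters, acts on CIITA. RNA was sequenced from 5 WT clones and 5 ZBTB48 KO clones of U2OS, an osteosarcoma cell line, each of them untreated or kept for 24 h with 250 U/ml IFNγ. This gave 4 groups of 5 libraries, and each replicate number stands for 1 clone within its genotype: WT1, WT3, WT4, WT5 and WT6 for WT replicates 1 to 5, and KOC3, KOC5, KOD2, KOE2 and KOF4 for KO replicates 1 to 5. Each library is 1 culture of 1 clone, so p values measure the spread between clones of 1 cell line.

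Total counts ran from 46652288 to 72952859 per library, and levels are in CPM, with library sizes scaled by edgeR's TMM factors, so that 3 counts come to between 0.0404 and 0.0609 CPM. ZBTB48 mRNA stood at 8.02 to 11.6 CPM in the WT libraries and at 1.29 to 5.27 CPM in the libraries of 4 KO clones, but at 11.3 CPM untreated and 15.8 CPM treated in KO replicate 3, which goes against that label, so the group is called the libraries labelled KO. The mRNA level does not show whether that clone makes the protein. The treated and untreated libraries of 1 clone deviated together from their groups across 21052 genes in the WT clones (r from 0.63 to 0.8) and in KO replicates 1 to 3 (0.6 to 0.79). They did not in KO replicates 4 and 5 (−0.02 and 0.05), where the best match of treated replicate 4 was untreated replicate 5 (r = 0.67) and that of treated replicate 5 was untreated replicate 4 (0.59). The clone-by-clone comparisons and the blocked fits, which use these pairs, are therefore also given without them. Of the markers of the osteoblast lineage, 7 summed to between 2880 and 10700 CPM, with COL1A2 and TWIST1 at or near 0. The 14 markers of antigen-presenting cells and lymphocytes summed to between 1.74 and 18.0 CPM, from 4.74 to 17.5 and from 3.44 to 13.4 CPM in untreated and treated WT libraries and from 2.08 to 18.0 and from 1.74 to 16.4 CPM in those labelled KO. ITGAX made up most of the highest sums, with 14.7 CPM in untreated WT replicate 2 and 13.9 CPM in untreated KO replicate 3.

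HLA-DMA, HLA-DMB, HLA-DOA and HLA-DOB lie within 1 stretch of the MHC region on the minus strand of chromosome 6 (GRCh38, as the count table gives it), from 32948618 to 32953097, 32934636 to 32941028, 33004182 to 33009591 and 32812763 to 32817002. IFI30 lies on chromosome 19 from 18173813 to 18178117, CTSS on chromosome 1 from 150730188 to 150765778 and LGMN on chromosome 14 from 92703809 to 92748627. CTSL lies on chromosome 9 from 87726119 to 87731469 and CTSD on chromosome 11 from 1752755 to 1763927. The exons of none of the 10 genes share bases with another gene of the table.

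Promoter sequences from the RefSeq promoter table (GRCh38.p14) were used for 7 of the 10 genes. None was used for CTSS, CTSB and LGMN, so their promoters were not examined. The 250 bases before the annotated start are shown for the HLA-DM and HLA-DO genes, because their treated levels stood differently to genotype, and for IFI30 as a gene that rose in the WT clones with no detected difference between genotypes. Capitals mark matches, on either strand, to the CCAAT box (CCAAT, or ATTGG when it lies on the other strand), to TGATGATG, to CACGTG and to the telomeric repeat TTAGGG (or CCCTAA).
HLA-DMA (chr6:32953098-32953347, minus strand): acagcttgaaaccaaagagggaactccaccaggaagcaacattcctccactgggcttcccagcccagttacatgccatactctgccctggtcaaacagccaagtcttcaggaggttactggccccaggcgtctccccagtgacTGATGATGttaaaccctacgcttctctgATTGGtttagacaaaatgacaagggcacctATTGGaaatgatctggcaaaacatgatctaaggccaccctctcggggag
HLA-DMB (chr6:32941029-32941278, minus strand): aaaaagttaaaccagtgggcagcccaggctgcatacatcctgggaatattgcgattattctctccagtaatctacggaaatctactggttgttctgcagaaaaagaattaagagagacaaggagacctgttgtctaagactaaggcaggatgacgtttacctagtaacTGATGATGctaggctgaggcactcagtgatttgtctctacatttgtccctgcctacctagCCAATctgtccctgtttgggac
HLA-DOA (chr6:33009592-33009841, minus strand): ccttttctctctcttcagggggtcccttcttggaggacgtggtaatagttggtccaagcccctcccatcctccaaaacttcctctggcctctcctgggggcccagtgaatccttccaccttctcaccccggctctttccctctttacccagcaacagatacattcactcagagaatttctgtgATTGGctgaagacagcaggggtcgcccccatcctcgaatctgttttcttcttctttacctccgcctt
HLA-DOB (chr6:32817003-32817252, minus strand): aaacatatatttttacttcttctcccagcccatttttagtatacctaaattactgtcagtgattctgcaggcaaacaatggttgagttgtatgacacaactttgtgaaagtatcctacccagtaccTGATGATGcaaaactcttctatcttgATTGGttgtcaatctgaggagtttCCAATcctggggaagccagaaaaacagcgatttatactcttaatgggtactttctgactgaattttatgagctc
IFI30 (chr19:18173563-18173812, plus strand): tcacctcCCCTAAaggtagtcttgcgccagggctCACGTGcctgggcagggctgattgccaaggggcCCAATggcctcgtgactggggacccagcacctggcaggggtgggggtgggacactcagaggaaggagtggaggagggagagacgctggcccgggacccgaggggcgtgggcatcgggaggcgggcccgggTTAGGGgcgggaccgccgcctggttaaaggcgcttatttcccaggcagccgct
A CCAAT box was present in all 5, and in 32.0% of the 35116 promoters of the table. HLA-DMA and HLA-DOB held 2 of them each. The letters TGATGATG, a motif chosen after the sequences had been read, started 107, 82 and 124 bases before the start (positions −107, −82 and −124) in HLA-DMA, HLA-DMB and HLA-DOB, were not in this window of HLA-DOA, and occur in 0.795% of all promoters. IFI30 alone of the 5 held CACGTG (6.34% of all promoters), at −216, and TTAGGG (7.94%), at −243 and −53. Among the other 2 members with a promoter sequence, CTSL held a CCAAT box at −86 and CTSD a CACGTG at −47. Neither the interferon-γ-activated site, searched as TTCNNNGAA (6.57% of all promoters), nor the core of the interferon-stimulated response element, searched as a pair of GAAA with 2 bases between them (3.02%), matched in any of the 7 windows.

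After IFNγ the WT clones raised most of the loading pathway, and the steps differed in size. HLA-DMA, HLA-DMB, HLA-DOA and CTSS went from group means of 0.126 to 1.23 CPM to means of 17.8 to 47.1 CPM, IFI30 and LGMN rose 3.37-fold and 2.72-fold from levels that were already high, and the abundant proteases CTSB, CTSL and CTSD did not pass the test. In all, 6 of the 10 genes passed, each higher after IFNγ, where 3.0% of the 19522 genes tested passed in either direction, 2.48% as higher and 0.512% as lower. HLA-DOA, with 38 untreated WT counts in all, reached edgeR's filter on low counts only through the treated libraries. The same holds for HLA-DMB and CTSS, whose lowest untreated WT libraries held 4 and 3 counts. These genes thus entered the test through the levels that it compares. A gene was called when edgeR's Benjamini-Hochberg adjusted p was under 0.01 and the change more than 2-fold. Treated and untreated WT libraries did not overlap for 7 of the 10 genes, all higher after IFNγ, against 6.68% of all genes tested as higher and 4.43% as lower. At an unadjusted p under 0.05 there were 7 of 10 members and 24.9% of all genes. The count was 3 without WT replicate 1 and 2 without WT replicate 2, with HLA-DMB and CTSS called in every such fit, and 4 to 5 without any other WT replicate. These fits do not pair the libraries of a clone. All 6 genes, and HLA-DOB as well, passed in the fit that blocked on the clone. These are bulk samples, in which fewer cells expressing a gene and less RNA per cell cannot be told apart.

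With IFNγ in the libraries labelled KO, 2 of the 9 genes that could be tested passed, CTSS and LGMN, where 1.96% of the 19385 genes tested did (1.70% as higher). HLA-DOA did not reach edgeR's filter on low counts there. CTSS, with 0 counts in untreated KO replicate 2, reached it through the treated libraries. The count depended on the processing: 4 genes passed in a fit that blocked on the clone (IFI30 and HLA-DOB in addition), 2 in the blocked fit without KO replicates 4 and 5, 6 with DESeq2 (HLA-DMA and HLA-DMB as well), 1 without KO replicate 5, and none without KO replicate 1, 3 or 4. Treated and untreated libraries did not overlap for 4 genes as higher (6.07% of genes tested), namely CTSS, HLA-DMB, LGMN and IFI30, and for CTSD as lower (3.48%).

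Between genotypes, no member passed in either state. Of the treated libraries, 0.0155% of 19383 genes passed, and of the untreated libraries 0.0154% of 19505. At an unadjusted p under 0.05 the treated comparison had 5 of 10 members (4.35% of all genes) and the untreated one 2 of 9 (4.79%). HLA-DOA, among these 5, reached the filter on low counts through the treated WT libraries. DESeq2 called HLA-DMA and HLA-DMB in the treated comparison without shrinkage of the fold changes, HLA-DMB alone with it, and no member in the untreated one. HLA-DMB was the only member whose treated WT libraries all lay above all treated libraries labelled KO, which 0.506% of the genes tested did, and 0.299% did the reverse. No member's untreated groups were separated in the same way, against 0.625% of genes tested with WT higher and 0.379% with WT lower.

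**Figure D1:**
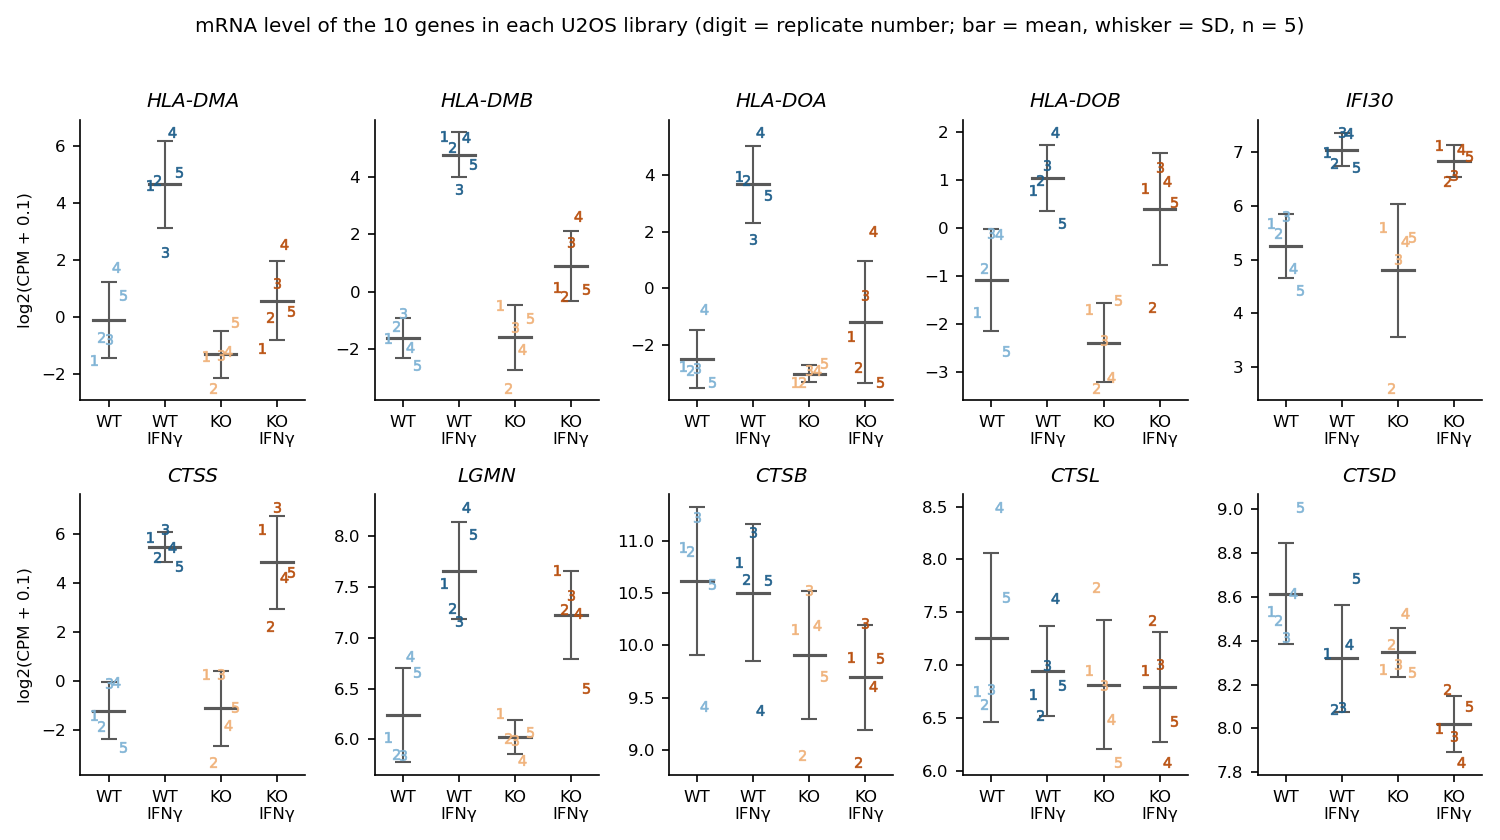
Level of each gene in every library, as log2(CPM + 0.1) on the y axis with a scale of its own for each gene, and the 4 groups on the x axis. Digits are replicate numbers, bars are means and whiskers SD (n = 5). HLA-DMA, HLA-DMB and HLA-DOA stood highest in the treated WT clones, CTSS stood above the untreated level in every treated library, and the ranges of CTSB and CTSL overlapped in all 4 groups.

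HLA-DMB and HLA-DMA, the chains of the peptide editor, were low without IFNγ. HLA-DMB stood at 0.233, 0.335, 0.508, 0.163 and 0.0708 CPM in untreated WT replicates 1 to 5 and at 42.4, 32.1, 11.8, 41.6 and 21.6 CPM after IFNγ. Replicates 1 to 5 labelled KO stood at 0.637, 0, 0.329, 0.152 and 0.435 CPM untreated and at 1.02, 0.804, 3.18, 6.13 and 0.977 CPM treated. Every treated WT library was above every treated library labelled KO, WT replicate 3 being the lowest of the former and KO replicate 4 the highest of the latter. The response in WT was 116-fold (log2 fold change 6.86, SE 0.54, edgeR adjusted p = 1.36e-05). The value for the KO label was 7.74-fold (log2 fold change 2.95, SE 0.87), which did not pass (edgeR adjusted p = 0.0632, and 0.101 in the blocked fit without KO replicates 4 and 5). Treated WT over treated KO was 12.3-fold (log2 fold change 3.62, SE 0.63), with an edgeR p of 0.000104 before and 0.227 after adjustment. The same values without KO replicate 3 were 3.74 (SE 0.72) and an adjusted p of 0.596. The exact permutation test over the 5 against 5 treated libraries gave p = 0.00794, the smallest it can give.

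HLA-DMA was likewise higher in treated WT than in treated KO-labelled libraries by group mean, with more spread between clones. It stood at 0.25, 0.511, 0.487, 3.29 and 1.59 CPM in untreated WT replicates 1 to 5 and at 24.2, 27.5, 4.71, 88.0 and 34.0 CPM after IFNγ. Under the KO label it stood at 0.29, 0.081, 0.296, 0.337 and 0.791 CPM untreated and at 0.367, 0.906, 2.21, 5.75 and 1.05 CPM treated. The treated genotypes overlapped in 1 place, where KO replicate 4 was above WT replicate 3. WT replicate 4 was highest both before and after IFNγ. The WT response was 29.3-fold (log2 fold change 4.87, SE 0.87, edgeR adjusted p = 0.0044). It no longer passed with no filter on low counts or without WT replicate 1, 2 or 5, where the adjusted p was 0.0228 to 0.0292. The value for the KO label was 5.7-fold (log2 fold change 2.51, SE 0.76, edgeR adjusted p = 0.0678, and 0.0638 in the blocked fit without KO replicates 4 and 5). Treated WT over treated KO was 17.2-fold (log2 fold change 4.11, SE 0.85, edgeR adjusted p = 0.648, and 4.15 with an adjusted p of 0.947 without KO replicate 3), and the exact permutation p was 0.0159. Untreated, HLA-DMA was 3.38-fold higher in WT by edgeR (log2 fold change 1.76, 95% interval 0.15 to 3.36, adjusted p = 0.98), while the HLA-DMB value was −0.26 (interval −1.95 to 1.43, adjusted p = 0.991).

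HLA-DOA, 1 chain of the HLA-DM inhibitor, was induced in the WT clones from almost no reads. HLA-DOA had 3, 2, 2, 31 and 0 counts in untreated WT replicates 1 to 5 and 865, 848, 243, 2719 and 519 counts after IFNγ, or 15.7, 14.3, 3.27, 45.9 and 9.75 CPM. The replicates labelled KO had 0, 0, 2, 2 and 3 counts untreated and 13, 3, 40, 221 and 0 counts treated. The treated KO libraries thus ran from 0 to 3.98 CPM, and only replicate 4 reached above the lowest WT library. The WT response was 136-fold (log2 fold change 7.09, SE 1.05, edgeR adjusted p = 0.0014). It rests on few untreated counts, 38 in all, of which WT replicate 4 held 31, and it did not pass without WT replicate 1 or 2 (edgeR adjusted p = 0.0154 and 0.0137). No fold is given for the libraries labelled KO, where every untreated library was at or under 3 counts. Treated WT over treated KO was 17.7-fold (log2 fold change 4.14, SE 1.23), with an edgeR p of 0.0058 before and 0.996 after adjustment and an exact permutation p of 0.0159. Without KO replicate 3 the log2 fold change was 4.07 (SE 1.41, edgeR adjusted p = 0.997).

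HLA-DOB, the other chain of HLA-DO, stayed low in every library, and its treated levels overlapped between genotypes. It stood at 0.2, 0.459, 0.833, 0.815 and 0.0708 CPM in untreated WT replicates 1 to 5 and at 1.65, 1.91, 2.41, 3.9 and 0.977 CPM after IFNγ. The replicates labelled KO stood at 0.212, 0, 0.0987, 0.0169 and 0.257 CPM untreated and at 1.68, 0.219, 2.34, 1.87 and 1.36 CPM treated. The treated WT libraries lay above all untreated ones, whereas treated KO replicate 2 was under the highest untreated library labelled KO. The WT value was 4.6-fold (log2 fold change 2.2, SE 0.59), past an adjusted p of 0.05 but not of 0.01 (edgeR adjusted p = 0.0349). It passed when edgeR blocked on the clone (2.34, edgeR adjusted p = 3.9e-05). DESeq2 called it in WT too, without a block (2.21, adjusted p = 0.00146), so HLA-DOB was on either side of the call depending on the fit. For the KO label the value was 12.6-fold (log2 fold change 3.66, SE 0.85, edgeR adjusted p = 0.0247). It too passed in the blocked fit (3.87, edgeR adjusted p = 0.00567), and without KO replicates 4 and 5 the blocked adjusted p was 0.0101. The treated genotypes differed by a log2 fold change of 0.54 (95% interval −0.61 to 1.68, edgeR adjusted p = 0.996, exact permutation p = 0.357). Untreated, the difference was 2.0 (interval 0.11 to 3.89, edgeR adjusted p = 0.98, exact permutation p = 0.0794).

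Whether the response itself differed between genotypes was tested in edgeR as an interaction over the 20 libraries and clone by clone as the log2(CPM + 0.1) of the treated minus the untreated library of a clone, a scale that understates the change of genes near 0. No gene of the 21052 tested passed in edgeR (0%) or in DESeq2, and 0.409% (86 genes) had an unadjusted p under 0.05 in edgeR, against 115 genes in DESeq2. HLA-DMB was the only member among them, with an interaction of 3.88 (SE 1.0) and an edgeR p of 0.000944 before and 1 after adjustment. When edgeR blocked on the clone, the interaction was 4.04 for HLA-DMB, 2.68 for HLA-DMA and 2.58 for HLA-DOA, with an edgeR p of 0.00381, 0.00996 and 0.134 before and of 1 after adjustment. Without KO replicates 4 and 5 this fit gave 4.44 for HLA-DMB, 2.66 for HLA-DMA and 2.66 for HLA-DOA, with an edgeR p of 0.00732, 0.0317 and 0.18 before and of 1 after adjustment. Without KO replicate 3 the HLA-DMB interaction was 3.98, with an edgeR p of 0.00238 before and 1 after adjustment.

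Clone by clone, the HLA-DMB response was 7.0, 6.21, 4.29, 7.31 and 6.99 in WT replicates 1 to 5 and 0.61, 3.18, 2.93, 4.63 and 1.01 in the replicates labelled KO. That of HLA-DMA was 6.12, 5.5, 3.03, 4.7 and 4.33 against 0.26, 2.47, 2.55, 3.74 and 0.37. That of HLA-DOA was 6.72, 6.74, 4.58, 6.25 and 6.62 against 1.62, 0.52, 2.69, 4.93 and −0.67. Each untreated library labelled KO held at most 3 counts of HLA-DOA, and the −0.67 is a change from 3 counts to 0. For all 3 genes WT replicate 3 had the smallest WT response and KO replicate 4 the largest KO response, and these 2 clones were the only overlap between the genotypes. The mean difference, WT minus KO, was 3.89 for HLA-DMB, 2.86 for HLA-DMA and 4.36 for HLA-DOA, each with an exact permutation p of 0.0159. The HLA-DOA value mostly repeats the difference of the treated levels, 4.88 on this scale beside 0.52 untreated, and is not a separate result. Without KO replicates 4 and 5 the differences were 4.12, 2.98 and 4.57, each with an exact p of 0.0357, the smallest that 5 against 3 clones allow. Without KO replicate 3 they were 4, 3.02 and 4.58, each with an exact p of 0.0317. These are 3 of 10 such tests, and no p is adjusted over the 10 genes. The clone responses of no member were fully separated, against 0.185% of the genes tested for which all WT responses were above all KO responses. For HLA-DMB, HLA-DMA and HLA-DOA this rested on KO replicate 4, whose treated and untreated libraries did not deviate together. The WT responses of these 3 genes lay above those of every other replicate labelled KO.

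**Figure D2:**
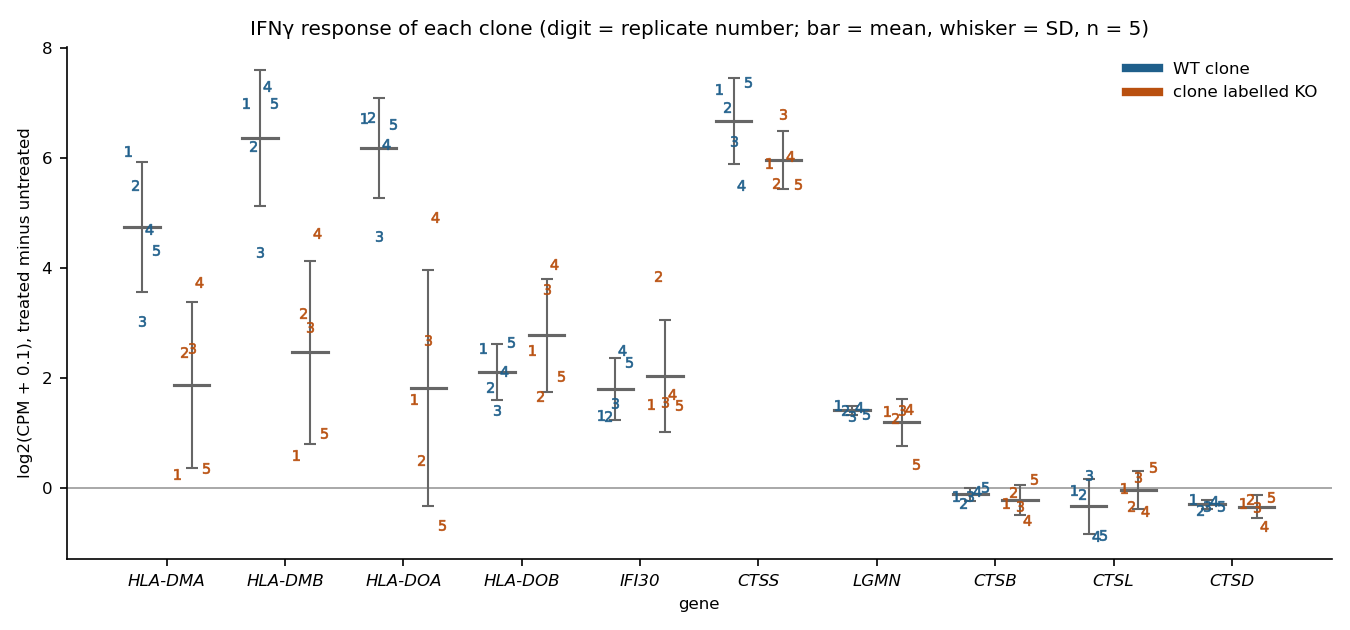
IFNγ response of each clone for each gene, as log2(CPM + 0.1) of the treated minus the untreated library (y axis), with WT clones in blue and clones labelled KO in orange. Digits are replicate numbers, bars means and whiskers SD (n = 5). For HLA-DMA, HLA-DMB and HLA-DOA the genotypes met only at WT replicate 3 and KO replicate 4, and for the other 7 genes their ranges overlapped more widely. KO replicates 4 and 5 are the doubtful pairs, whose treated and untreated libraries did not deviate together.

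For the other 7 members no difference between the responses was detected, at a precision that differed widely between genes. The difference between clone responses, WT minus KO, was 0.22 for LGMN (exact permutation p = 0.27) and −0.24 for IFI30 (exact p = 0.746). It was 0.72 for CTSS (exact permutation p = 0.119, and 0.0317 to 0.238 on leaving out 1 clone, the lowest without WT replicate 4) and −0.66 for HLA-DOB (exact p = 0.246). For CTSB, CTSD and CTSL it was 0.1, 0.03 and −0.3 (exact permutation p = 0.5, 0.825 and 0.31). Without KO replicates 4 and 5 the differences were 0.05 for LGMN, −0.52 for IFI30, 0.6 for CTSS, −0.48 for HLA-DOB, 0.1 for CTSB, −0.02 for CTSD and −0.29 for CTSL, with exact permutation p values of 0.286 to 0.714. The edgeR interaction left a 95% interval of −0.34 to 0.41 for CTSD and of −0.52 to 0.89 for LGMN, but of −2.2 to 2.7 for CTSS and −3.61 to 0.67 for HLA-DOB. The intervals of IFI30 (−1.11 to 1.04), CTSL (−1.48 to 0.68) and CTSB (−0.89 to 1.12) also hold a 2-fold difference, so among these 7 genes only those of CTSD and LGMN leave one out.

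CIITA, given as the reference for the HLA-DM and HLA-DO genes, had 107, 55.2, 38.1, 89.5 and 106 CPM in treated WT replicates 1 to 5 and 3.05, 6.12, 11.1, 18.8 and 7.45 CPM in the treated libraries labelled KO. Its exons share 1569 bases with DEXI on the other strand, and the strand setting of the counting is not given in the sources used here. The ranks of the clones ran together at the ends of the scale: within WT, replicate 3 was lowest for CIITA, HLA-DMA, HLA-DMB and HLA-DOA, and within the libraries labelled KO, replicates 4 and 3 were the first and second highest for all 4. ZBTB48 mRNA in KO replicate 3 was above that of every WT library of the same treatment. After IFNγ this clone had the second highest CIITA, HLA-DMA, HLA-DMB and HLA-DOA of its group, at 11.1, 2.21, 3.18 and 0.756 CPM. All 4 were below the lowest treated WT library. HLA-DOB shared this order only in part, being highest in replicates 3 and 4 (2.34 and 1.87 CPM) among the libraries labelled KO, and CTSS did not share it. In the treated WT clones HLA-DOB was 2.41 CPM in replicate 3, above 3 other clones, and CTSS was 74.1 CPM there, above every other WT clone.

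**Figure D3:**
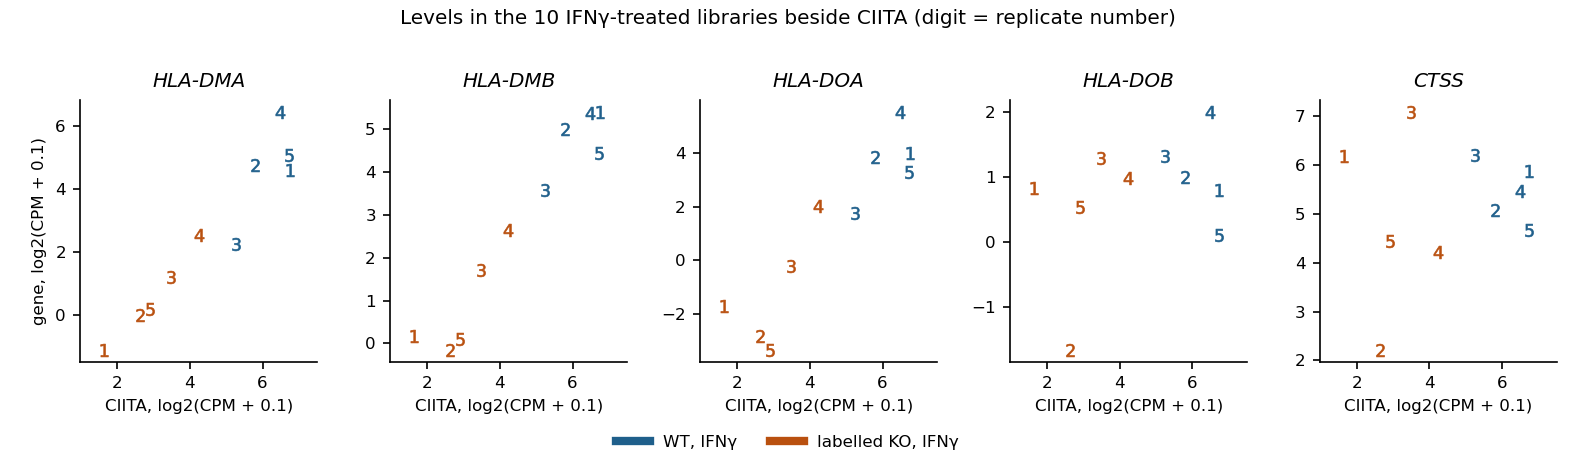
Level of HLA-DMA, HLA-DMB, HLA-DOA, HLA-DOB and CTSS (y axes) beside CIITA (x axis) in the 10 treated libraries, all as log2(CPM + 0.1), with WT in blue, libraries labelled KO in orange and digits for replicate numbers. For CIITA, HLA-DMA, HLA-DMB and HLA-DOA, KO replicates 1, 2 and 5 stood lowest. KO replicates 3 and 4 and WT replicate 3 came next, in varying order, and the other WT clones stood highest. Among those other WT clones the order was not that of CIITA. HLA-DOB and CTSS showed no such series.

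IFI30, the lysosomal thiol reductase, was well expressed before IFNγ, and every treated library lay above every untreated one. It stood at 51.3, 44.8, 56.4, 28.6 and 21.5 CPM in untreated WT replicates 1 to 5 and at 129, 111, 166, 164 and 106 CPM after IFNγ. Under the KO label it stood at 48.5, 6.01, 32.3, 40.7 and 42.6 CPM untreated and at 141, 88.9, 95.6, 133 and 122 CPM treated. KO replicate 2 was far below its group before IFNγ and close to it afterwards. The WT response was 3.37-fold (log2 fold change 1.75, SE 0.26, edgeR adjusted p = 0.00144), with an adjusted p of 0.0108 and 0.0131 without WT replicate 2 and 4. Under the KO label the value was 3.41-fold (log2 fold change 1.77, SE 0.42, edgeR adjusted p = 0.0282), and without KO replicate 2 it was 1.58 and passed (edgeR adjusted p = 4.51e-04). It also passed when edgeR blocked on the clone (1.99, edgeR adjusted p = 0.00944), but not in that fit without KO replicates 4 and 5 (adjusted p = 0.0856). Treated WT and KO libraries differed by a log2 fold change of 0.22 (95% interval −0.17 to 0.61, edgeR adjusted p = 0.996), which leaves out a 2-fold difference in either direction.

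CTSS, the protease of the last steps of invariant chain cleavage, rose from near 0 in both genotypes. It stood at 0.283, 0.176, 0.833, 0.88 and 0.0531 CPM in untreated WT replicates 1 to 5 and at 58.3, 33.5, 74.1, 44.2 and 25.4 CPM after IFNγ. Replicates labelled KO stood at 1.12, 0, 1.13, 0.185 and 0.376 CPM untreated and at 72.6, 4.56, 136, 18.5 and 21.7 CPM treated. The treated libraries labelled KO spanned the whole WT range and beyond it at both ends, from KO replicate 2 to KO replicate 3. The response was 107-fold in WT (log2 fold change 6.74, SE 0.64, edgeR adjusted p = 6.37e-05) and 89-fold under the KO label (log2 fold change 6.48, SE 1.12, edgeR adjusted p = 0.00596). The latter kept its size but not its call without KO replicate 3 (6.12, edgeR adjusted p = 0.0302), and it passed in the blocked fit without KO replicates 4 and 5 (6.55, adjusted p = 3.17e-04). Treated WT over treated KO was −0.10 on the log2 scale (95% interval −1.61 to 1.41, edgeR adjusted p = 0.999), and its sign turned without KO replicate 3 (0.68, adjusted p = 0.997). A high CTSS level was also found beside low HLA-DM: in KO replicate 1 it was at 72.6 CPM, while HLA-DMA was at 0.367 and HLA-DMB at 1.02 CPM.

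LGMN, an asparaginyl endopeptidase that also activates other lysosomal proteases, rose by nearly the same factor in the WT clones and in KO replicates 1 to 3. It stood at 64.8, 58, 57.3, 113 and 101 CPM in untreated WT replicates 1 to 5 and at 186, 157, 143, 312 and 260 CPM after IFNγ. KO replicates 1 to 5 stood at 76.7, 64.4, 63.5, 55.6 and 67.1 CPM untreated and at 203, 156, 171, 152 and 91 CPM treated. The clone responses were 1.32 to 1.52 on the log2 scale in WT and 1.28 to 1.43 in KO replicates 1 to 3. In KO replicates 4 and 5, the doubtful pairs, they were 1.45 and 0.44. The response was 2.72-fold in WT (log2 fold change 1.44, SE 0.27, edgeR adjusted p = 0.00594) and 2.36-fold under the KO label (log2 fold change 1.24, SE 0.19, edgeR adjusted p = 0.00278). Without WT replicate 1, 2, 3 or 5 the WT value of 1.43 to 1.46 no longer passed (edgeR adjusted p = 0.0128 to 0.0385). Those fits do not pair the libraries of a clone. The WT value passed in the fit blocked on the clone, and the WT clone responses had an SD of 0.08. Without KO replicate 3 the KO value was 1.19 (edgeR adjusted p = 0.0261), and in the fit blocked on the clone, without KO replicates 4 and 5, it was 1.37 (adjusted p = 6.23e-04). Treated WT over treated KO was 0.46 (95% interval −0.08 to 0.99, edgeR adjusted p = 0.996).

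**Figure D4:**
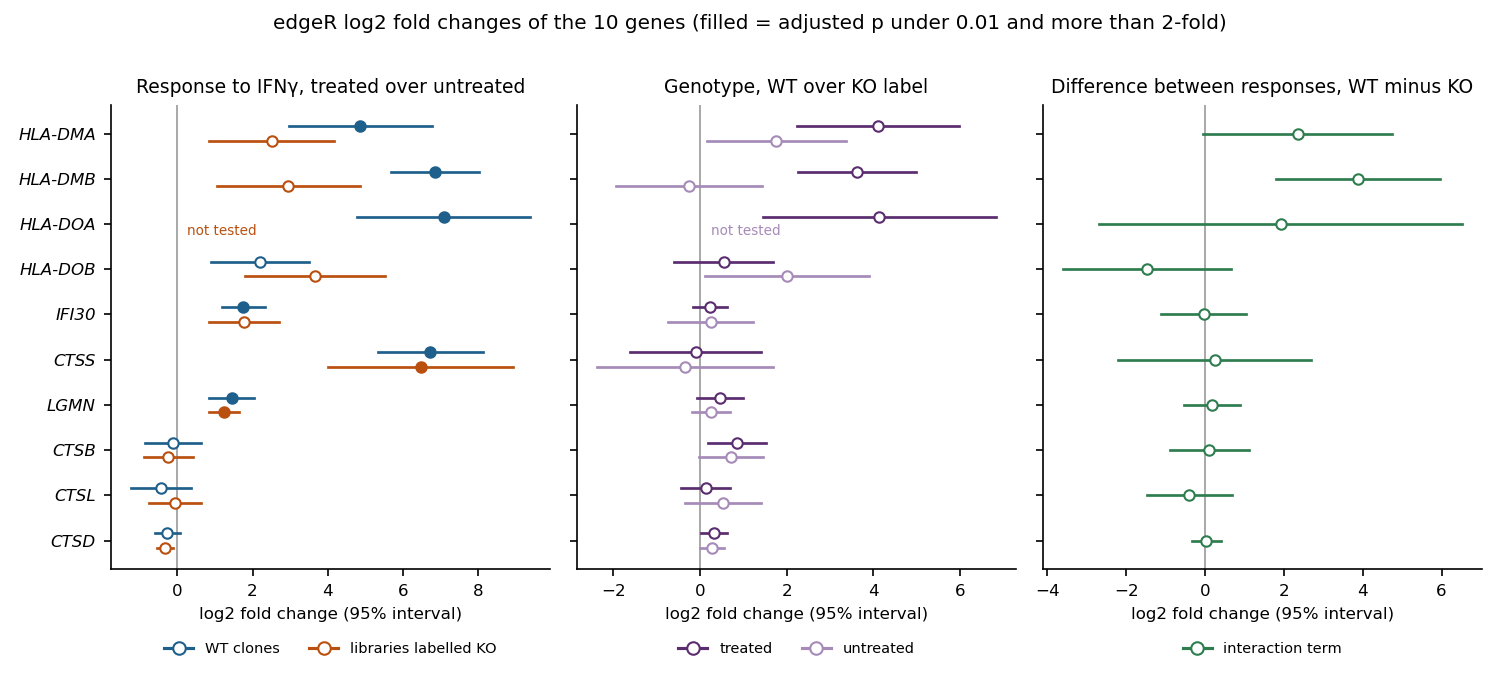
edgeR log2 fold changes (x axes, points) with 95% intervals (lines) of the 10 genes (y axis) for the IFNγ response of each genotype, for WT over KO in treated and in untreated libraries, and for the difference between the responses. Filled points passed an adjusted p under 0.01 and more than 2-fold, 6 genes in WT and 2 in the libraries labelled KO, and HLA-DOA was not tested where so marked.

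CTSB, CTSL and CTSD, the cysteine proteases cathepsin B and L and the aspartic protease cathepsin D, were the most abundant members per exon length without IFNγ, and none of them was called in any comparison. CTSB lies on chromosome 8 from 11842524 to 11868087. CTSB stood at 1970, 1920, 2400, 683 and 1540 CPM in untreated WT replicates 1 to 5 and at 1780, 1590, 2180, 666 and 1580 CPM after IFNγ. KO replicates 1 to 5 stood at 1140, 494, 1480, 1170 and 838 CPM untreated and at 950, 471, 1190, 782 and 942 CPM treated. WT replicate 4 and KO replicate 2 were the lowest of their genotype in both states. The IFNγ effect on CTSB was −0.11 in WT (95% interval −0.87 to 0.64, edgeR adjusted p = 0.895) and −0.24 in the libraries labelled KO (−0.89 to 0.41, adjusted p = 0.687). WT over KO it was 0.85 in treated libraries (95% interval 0.19 to 1.51, edgeR adjusted p = 0.996, exact permutation p = 0.0714) and 0.72 in untreated ones (−0.02 to 1.46, adjusted p = 0.98, exact permutation p = 0.127). Leaving out 1 clone gave an exact permutation p of 0.0159 to 0.143 in treated and 0.0159 to 0.254 in untreated libraries, the lowest without WT replicate 4 in both.

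CTSL showed the opposite clone pattern. It stood at 108, 99.3, 109, 361 and 200 CPM in untreated WT replicates 1 to 5 and at 106, 92, 128, 199 and 112 CPM after IFNγ. KO replicates 1 to 5 stood at 124, 213, 112, 89.9 and 67.6 CPM untreated and at 124, 172, 129, 67.5 and 88.6 CPM treated. WT replicate 4 and KO replicate 2, low for CTSB, were here the highest of their genotype in both states. The IFNγ effect was −0.45 in WT (95% interval −1.25 to 0.35, edgeR adjusted p = 0.506) and −0.06 in the libraries labelled KO (−0.75 to 0.63, adjusted p = 0.935). WT over KO was 0.13 in treated libraries (95% interval −0.43 to 0.69, edgeR adjusted p = 0.996) and 0.53 in untreated ones (−0.35 to 1.4, adjusted p = 0.98).

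Per exon length, so that the genes can be compared, the level of CTSB over that of CTSL was 0.677 in untreated WT replicate 4 and 0.83 in untreated KO replicate 2, and between 2.76 and 7.91 in the other 8 untreated libraries. After IFNγ it was 1.2 and 0.979 in these clones and between 2.73 and 6.17 in the other 8 treated libraries. The ratio was thus lowest in 1 clone of each genotype with and without IFNγ, and under 1 in these clones except in treated WT replicate 4. CTSB made up 23.8 to 24.4% of the summed level per length of CTSB, CTSL, CTSD, LGMN and CTSS in the 4 libraries of these clones and 39.2 to 65.9% in the other 16.

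**Figure D5:**
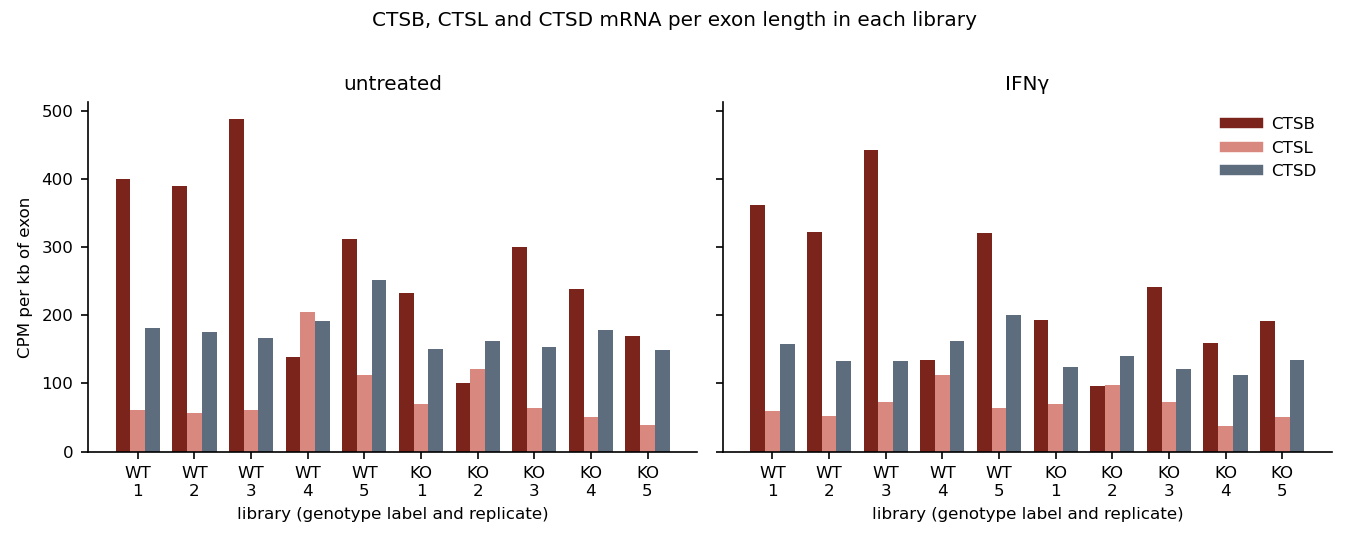
Level of CTSB, CTSL and CTSD in each library as CPM per kb of exon (y axis, from 0), untreated on the left and after IFNγ on the right, with the genotype label and replicate number on the x axis. CTSB led in most libraries, but in WT replicate 4 and KO replicate 2 it stood at 95.7 to 139 CPM per kb beside CTSL at 97.8 to 205 and CTSD at 141 to 191.

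CTSD varied little between clones. It stood at 371, 360, 342, 393 and 515 CPM in untreated WT replicates 1 to 5 and at 325, 272, 274, 334 and 411 CPM after IFNγ. KO replicates 1 to 5 stood at 309, 334, 314, 368 and 306 CPM untreated and at 256, 290, 250, 230 and 275 CPM treated. It was lower after IFNγ in all 10 clones, by 0.16 to 0.68 on the log2 scale, and the treated and untreated libraries labelled KO did not overlap. Both ends of that range, −0.68 and −0.16, were KO replicates 4 and 5, the doubtful pairs. The responses were −0.4 to −0.19 in WT and −0.27, −0.2 and −0.33 in KO replicates 1 to 3. The log2 fold change was −0.28 in WT (95% interval −0.61 to 0.06, edgeR adjusted p = 0.304) and −0.33 in the libraries labelled KO (−0.55 to −0.11, adjusted p = 0.0668). When edgeR blocked on the clone, the adjusted p was 3.96e-04 in WT and 0.0432 in the libraries labelled KO, for a change under 2-fold, which is no call. WT over KO was 0.31 in treated libraries (95% interval 0.02 to 0.61, edgeR adjusted p = 0.996, exact permutation p = 0.0476) and 0.27 in untreated ones (0 to 0.55, adjusted p = 0.98, exact permutation p = 0.0238). Leaving out 1 clone moved the exact permutation p of the treated libraries to between 0.0476 and 0.0952. Single-gene permutation tests between genotypes were run 20 times for the 10 genes, with p values that are not adjusted.

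On the scale of CPM per kb of exon, the members formed a high set and a low set in the untreated WT clones: CTSB (mean 346, range 139 to 488), CTSD (193, 166 to 251), CTSL (99.5, 56.3 to 205), IFI30 (41.0, 21.8 to 57) and LGMN (33.5, 24.4 to 48), and then HLA-DMA (1.12, 0.228 to 3.01), HLA-DOB, HLA-DMB, CTSS and HLA-DOA (0.358, 0.194, 0.113 and 0.0364). Each gene overlapped its neighbour in this order except LGMN and HLA-DMA, between which the gap lay. The untreated libraries labelled KO had the same gap between LGMN (27.9) and HLA-DMA (0.328), and CTSD (159, 149 to 179) did not overlap CTSL (68.9, 38.4 to 121) there. After IFNγ all neighbours overlapped in WT, from CTSB (317) through CTSD (157), IFI30 (137), LGMN (90), CTSL (72.2), HLA-DMA (32.7), HLA-DMB (22.2), CTSS (12) and HLA-DOA (5.13) to HLA-DOB (1.63). The overlap of CTSL and HLA-DMA rested on WT replicate 4, with HLA-DMA at 80.5. In the other treated WT clones HLA-DMA was at most 31.1 and CTSL at least 52.2. CTSL was above HLA-DMA within every treated WT library. In the treated libraries labelled KO the neighbours LGMN (65.7, 38.7 to 86.2) and CTSS (12.9, 1.16 to 34.6) came close without overlapping, the lowest LGMN being in KO replicate 5 and the highest CTSS in KO replicate 3. Below CTSS came HLA-DMA, HLA-DMB, HLA-DOB and HLA-DOA, at 1.88, 1.8, 1.13 and 0.288. CTSS and the HLA-DM genes thus changed places between genotypes in the order of means, although CTSS overlapped the HLA-DM gene next to it in both.

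The 2 chains of a dimer were compared per length within each treated library. HLA-DMA over HLA-DMB was 0.704, 1.06, 0.493, 2.61 and 1.94 in WT replicates 1 to 5 and 0.443, 1.39, 0.859, 1.16 and 1.33 in the libraries labelled KO, with overlapping ranges. HLA-DOA over HLA-DOB was 3.64, 2.87, 0.52, 4.51 and 3.82 in WT and 0.0474, 0.0766, 0.123, 0.813 and 0 in the libraries labelled KO. HLA-DOA was thus the larger mRNA of the HLA-DO chains in 4 of 5 treated WT clones and the smaller one in all 5 libraries labelled KO. The summed HLA-DM chains over the summed HLA-DO chains came to 9.29, 8.79, 4.73, 6.88 and 13.3 in WT and to 0.826, 8.01, 2.21, 3.83 and 1.64 in the libraries labelled KO, where KO replicate 2 reached the WT range. CTSS made up 0.922 to 2.58% of the 5 proteases' summed level per length in treated WT libraries and 0.288 to 6.37% in those labelled KO, against at most 0.0585% in any untreated library.

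The other genes of the pathway were counted over lists, the members being lists of their own. Among 16 other lysosomal proteases tested in WT none was called after IFNγ, with a median log2 fold change of −0.15 where all genes had −0.03, and among 15 in the libraries labelled KO 1 was called. This was CTSO, a cathepsin, with a log2 fold change of 1.89 (SE 0.29, edgeR adjusted p = 0.00324) and, in WT, of 1.76 (SE 0.41, adjusted p = 0.0176). None of the cystatins, inhibitors of cysteine cathepsins, was called in WT (7 tested, median 0.08) or in the libraries labelled KO (9 tested, median −0.1). Nor was any of 33 other lysosomal proteins in either genotype (medians −0.13 and −0.11). Of the classical MHC-II chains with CD74, 8 of 9 tested were called in WT (median 6.86), among them CD74 (log2 fold change 11.63, SE 0.54, edgeR adjusted p = 2.68e-07) and HLA-DRA (10.79, adjusted p = 4.2e-05), and 2 of 6 in the libraries labelled KO (median 4.46), namely CD74 (8.65, SE 1.38, edgeR adjusted p = 0.00379) and HLA-DRA (9.19, adjusted p = 0.00148). These medians are over different genes. HLA-DRB5 and HLA-DQA1, with 2 and 9 untreated WT counts in all, passed the filter in WT through the treated libraries. They were not tested in the libraries labelled KO. HLA-DRA, with 77 untreated counts in all in WT and 18 under the KO label, also passed the filter through the treated libraries. So did HLA-DRB1 in WT, with 14 untreated counts, and the calls of these genes are not free of that selection. The members' own medians were 1.98 over 10 genes and 1.77 over 9.

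Between treated genotypes no gene of these lists was called. The classical MHC-II list had a median of 3.5 over 10 genes, all higher in WT, and the members had a median of 0.5 over 10 genes, 9 of them higher. The other lysosomal proteases had 0.46 with 14 of 15 higher in WT, and the other lysosomal proteins 0.31 with 28 of 33 higher, where all genes tested had −0.016. In untreated libraries these medians were 0.32 (13 of 16 higher) and 0.28 (28 of 33 higher), against −0.002 over all genes. CTSB and CTSD, at 0.85 and 0.31 in treated libraries, thus lay on the same side as most lysosomal genes, and this side was also taken without IFNγ. Of the factors bound at MHC-II promoters, CIITA alone was called, in WT (log2 fold change 4.66, SE 0.34, edgeR adjusted p = 8.32e-06). Under the KO label CIITA was close to a call (log2 fold change 2.19, SE 0.43, edgeR adjusted p = 0.0116). Its treated libraries labelled KO all lay above the untreated ones.

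The genes outside the members whose log2(CPM + 0.1) was most like that of each member over the 20 libraries are given by Pearson's r, as a description of libraries that share treatment and clone. They were HLA-DQA1 and HLA-DPA1 for HLA-DMA (r = 0.953 and 0.935), HLA-DRB1, CD74 and HLA-DRA for HLA-DMB (0.969, 0.952 and 0.95), and HLA-DQA1 and HLA-DRB5 for HLA-DOA (0.979 and 0.955). For HLA-DMA and HLA-DOA the pseudogene HLA-DRB6 came next (0.928 and 0.955). The HLA class II genes resemble each other in sequence, so reads that fit several of them are lost when only unique matches are counted. The 3 genes most like HLA-DOB were of another kind, PTGS2, DDO and RFFL (0.943, 0.907 and 0.899). CTSS was most like CASP4, IL15RA and TMEM229B (0.977, 0.974 and 0.971), IFI30 most like PARP10, BTN3A2 and TLR3 (0.972, 0.963 and 0.962), and LGMN most like OPTN, TXNIP and RNF34 (0.946, 0.939 and 0.932). CTSD was most like USB1, GFOD2 and GSN (0.917, 0.908 and 0.877), CTSB most like CACNA1A, LINC00920 and LOC105376374 (0.901, 0.901 and 0.898), and CTSL most like TMEM231, TULP1 and CUL9 (0.864, 0.861 and 0.86).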

How the data were processed

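RNA of 20 libraries of U2OS clones was sequenced as stranded, polyA-selected mRNA. The deposited table holds the count of reads per gene and library, made by the authors with STAR 2.7.9a (GRCh38, RefSeq genes, up to 4 mismatches per read pair, uniquely mapped reads) and featureCounts 2.4.0, and its values are not normalized. The strand setting is not given in the sources used here. Reads that fit more than 1 HLA gene are lost by this mapping, which can lower the counts of HLA class II genes.

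The 10 members were read by gene name, and groups follow the labels. No row lacked a gene name, and no sample column was left out. No 2 libraries of a group agreed within sampling noise. The members, lists and tests were chosen with earlier results of these data known. Each comparison was fitted across all genes with edgeR 4.0.16 in R 4.3.3 (TMM scaling, filterByExpr, robust quasi-likelihood test, Benjamini-Hochberg adjustment) on its own 10 libraries, and the interaction on all 20. The study's own analysis used DESeq2 1.40.1 with shrinkage, and DESeq2 1.42.0 was run here as an alternative. A call needs an adjusted p under 0.01 and more than 2-fold. Single genes were also compared on log2(CPM + 0.1) by two-sided exact permutation tests over 252 regroupings, 20 between genotypes and 10 of responses, not adjusted. Intervals on fold changes are 95% intervals of the edgeR fit.

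Replicate numbers name clones, so treated and untreated libraries with 1 number share a clone, and the fit with the clone as a replicate block was the alternative. Deviations from the group means correlated between the libraries of a clone at 0.6 to 0.8, except in KO replicates 4 and 5. Other alternatives were edgeR with median-ratio size factors or library totals, no filter on low counts, no robust option, all 20 libraries fitted together, another threshold, a pseudocount of 1 and leaving out each clone. The fit functions were also run on simulated counts, with the same spread for every gene and no clone effect. That run does not show how the fits do with clones that differ as these do. Named genes are all members, ZBTB48 as the targeted gene, CIITA, CD74 and HLA-DRA as reference values, up to 4 called genes of each other list by size of change, and the 3 genes most like each member by Pearson's r over the 20 libraries.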

Additional observations from a re-analysis of the deposited data

Results flagged for a closer look

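In each of the 40 gene and group combinations of 5 libraries, the gap of the highest or lowest library to its neighbour was set against the range of the group. With Dixon's 95% critical value of 0.71, chance gives about 2 such libraries in 40 groups, and 4 were found. Untreated WT replicate 4 stood apart for HLA-DOA at 0.505 CPM, with a gap of 0.78 of the range. Treated KO replicate 2 stood apart for HLA-DOB at 0.219 CPM (0.75), and the untreated library of that clone for IFI30 at 6.01 CPM (0.8). Treated WT replicate 4 stood apart for CTSB at 666 CPM (0.72).

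The clone-by-clone difference between the IFNγ responses, WT minus KO, was 2.86 for HLA-DMA, 3.89 for HLA-DMB and 4.36 for HLA-DOA on the log2(CPM + 0.1) scale. Each had an exact permutation p of 0.0159 that is not adjusted over the 10 genes. In the fit across all genes the HLA-DMB interaction was 3.88, with an edgeR p of 0.000944 before and 1 after adjustment. The HLA-DMA and HLA-DOA interactions were 2.35 (95% interval −0.06 to 4.75) and 1.92 (−2.68 to 6.52), with an edgeR p of 0.0551 and 0.394 before adjustment. Every untreated library labelled KO held at most 3 counts of HLA-DOA.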

How the results depend on the processing

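The number of members called was 2 for the response of the libraries labelled KO. It was 1 with no filter on low counts, 6 with DESeq2 with or without shrinkage, 4 with all 20 libraries fitted together, 4 with the clone as a replicate block and 4 at an adjusted p under 0.05 with no fold limit. Leaving out 1 clone gave 0 to 3 there and 2 to 5 of the 6 in WT. Between treated genotypes DESeq2 called 2 members without and 1 with shrinkage, against 0. DESeq2 shrinkage was not run for the interaction, for which the normal prior is not offered. WT and KO replicate numbers share only a number (correlations from −0.21 to 0.23). Their replicate block left 0 calls and turned CTSS between treated genotypes from −0.10 to 0.57. The cause was not tested. Without KO replicates 4 and 5 the CTSD interaction was −0.01 with the block, and the CTSD difference clone by clone −0.02.

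Leaving out 1 clone moved fitted log2 fold changes across 0 for CTSL in the KO response (−0.13 to 0.05), for CTSS and CTSL between treated genotypes (−0.4 to 0.68 and −0.08 to 0.31), for HLA-DMB, IFI30 and CTSS between untreated genotypes (−0.64 to 0.17, −0.03 to 0.4 and −0.76 to 0.07) and for the interactions of IFI30 (−0.21 to 0.16) and CTSD (−0.05 to 0.09). Clone-by-clone differences ran from −0.41 to 0.22 for IFI30, from 0.54 to 1.01 for CTSS and from −0.05 to 0.08 for CTSD. Single-gene differences of treated genotypes ran from −0.03 to 1.19 for CTSS, −0.03 to 0.31 for CTSL, 0.6 to 1.09 for CTSB and 0.21 to 0.36 for CTSD. Those of untreated genotypes ran from −0.46 to 0.26 for HLA-DMB, 1.07 to 1.68 for HLA-DOB, −0.09 to 0.66 for IFI30, −0.64 to 0.28 for CTSS, 0.47 to 1.01 for CTSB and 0.17 to 0.32 for CTSD. Counts near 0 limit HLA-DOA, HLA-DOB, HLA-DMB and CTSS without IFNγ.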
